A study of Danio rerio with 6 samples.

Results

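The histone variant genes and the stem-loop binding protein genes were followed in zebrafish zygotes through RNA immunoprecipitation and sequencing, in which RNA recovered with Tdrd6a was set against input RNA. Members were the entries of the deposited gene table named slbp2, slbp, h3f3b.1, h2afvb, h2afva or h2afx. The table held 10 such entries of 21051: 1 each for slbp, h2afvb, h2afva and h2afx, 5 for h3f3b.1, and 1 for slbp2, which the table lists under its clone name zgc:158856 and which was matched through its identifier (ENSDARG00000069428). The groups were 3 Tdrd6a IP libraries and 3 input libraries, all labelled as zebrafish zygotes kept under standard conditions. The labels give no strain or genotype. They do not say that the replicates are different clutches, and each p-value therefore refers to the spread among these 6 libraries. How much of that spread is technical was not tested. No mock or unrelated-antibody precipitate was analysed here, so every comparison is of IP with input alone. Tdrd6a carries Tudor domains and is found in germ plasm, which the egg provides and future germ cells take up, and the comparison asks which maternal transcripts are over- or under-represented in what it precipitates.

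Messenger RNAs of the replication-dependent histones end in a stem-loop instead of a poly(A) tail. The stem-loop binding protein, Slbp, binds that structure and acts in the processing and translation of these messages, and Slbp2 is a related protein of oocytes, known from Xenopus and fish, that is tied to the storage of histone messages. Replacement variants such as H3.3 and H2A.Z are made from polyadenylated messages and enter chromatin outside replication, while H2A.X is the variant phosphorylated at DNA breaks. An egg stores histone proteins and messages for the rapid divisions before its own genome is switched on.

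The libraries held 22466764, 4031863 and 9701595 reads in IP replicates 1, 2 and 3 and 10481206, 16048024 and 19804774 in input replicates 1, 2 and 3. IP replicate 2 was the shallowest, and in it every member still had at least 45 reads. All 12 measured markers of eggs and zygotes averaged at least 10 normalized counts in both groups (12 of 12 in IP and 12 of 12 in input). Of 9 entries for markers of differentiated somatic cells, 1 reached that mean in IP and 0 in input, and of 4 genes of zygotic transcription 0 did so in either group. The aromatase gene cyp19a1a and the hormone receptor gene lhcgr, which mark ovarian follicle cells, were at 0 in both groups, while gsdf averaged 21.2 normalized counts in IP and 28.1 in input.

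In the main fit, with group as the only term, the message of slbp2 rose steeply in IP and those of 2 of the 5 H3.3 entries and of 1 of the 2 H2A.Z genes fell. With replicate number as a block the other H2A.Z gene, h2afva, was called lower too (limma adjusted p = 0.0380). For slbp and h2afx no difference was detectable. All 10 entries reached the minimum mean of 10 normalized counts. At an adjusted p under 0.05 limma called 4 of the 10, against 6.32% of all 13265 genes tested, with 1 higher (against 4.46%), 3 lower (against 1.86%) and 6 not called. Each value is relative to the other RNA of its library. With replicate number as a block, 1 was called higher and 4 lower, against 6.97% and 3.52% of all genes. Without IP replicate 2 the numbers were 1 higher and 4 lower as well, where 8.93% of all genes were called higher and 4.12% lower. Fewer were called lower in other fits, with 1 without IP replicate 1 and 2 without IP replicate 3. It was 1 without input replicate 1, 1 without input replicate 2 and 0 without input replicate 3. In these fits 60, 173, 23, 34 and 10 of all 13265 genes were called lower. Without a filter beyond 1 read it was 1 of the 10, against 101 of 19507 genes. The 1 higher call, slbp2, stayed in each.

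**Figure D1:**
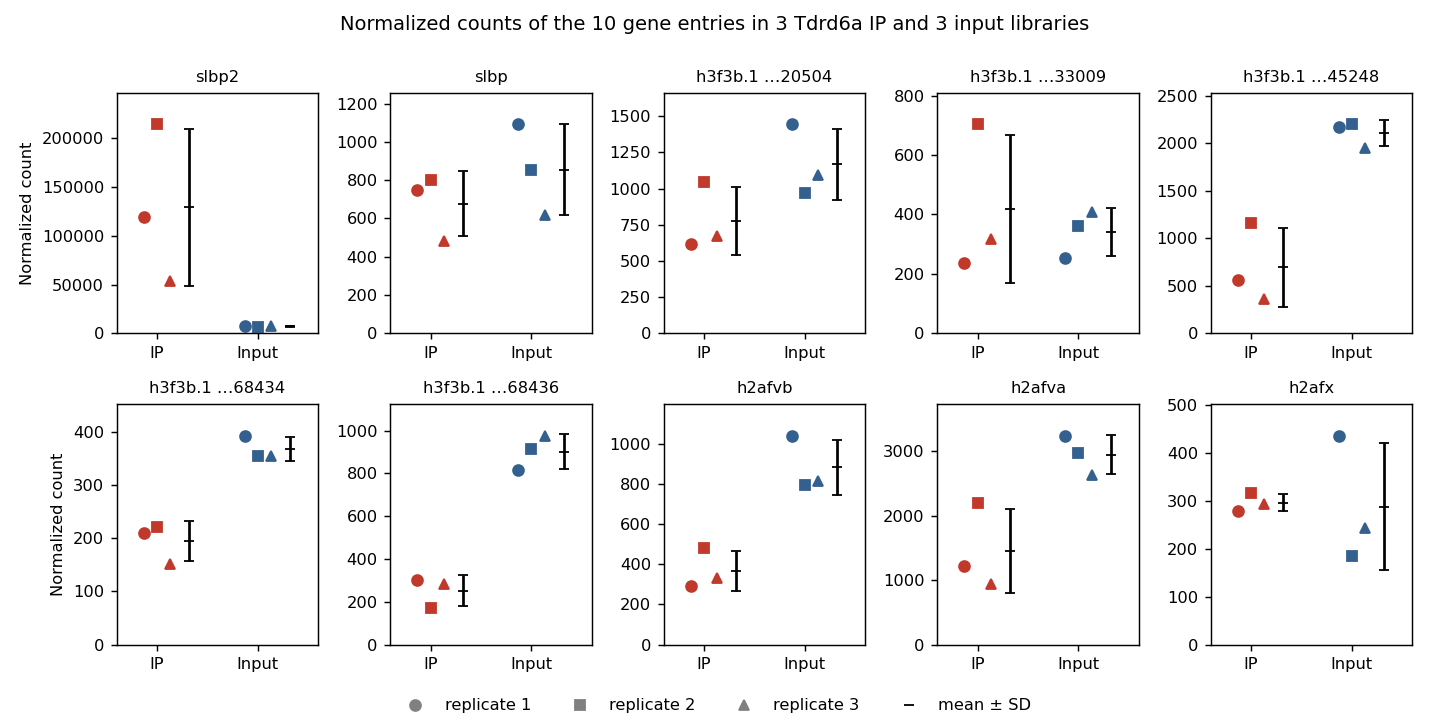
Normalized counts (y axis, linear from 0, a scale of its own in each panel) of the 10 entries in the 3 Tdrd6a IP libraries (red, left) and the 3 input libraries (blue, right), with symbols for replicate numbers and black bars for the mean ± SD. The IP libraries of slbp2 lie between 53412.0 and 214495.8, all above the input libraries, while those of h2afvb, h2afva and 3 of the h3f3b.1 entries lie below all of theirs. Of all genes tested 14.6% had every IP library above every input library and 12.9% had every one below.

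The transcript of slbp2 had 119540.6, 214495.8 and 53412.0 normalized counts in IP replicates 1, 2 and 3, against 7855.8, 6352.7 and 7386.1 in input replicates 1, 2 and 3. Every IP library was above every input library, as for 14.6% of all genes tested. IP values spread 4.02-fold between the highest and the lowest library, input values 1.24-fold. The means were 129149 ± 80971 in IP and 7198 ± 769 in input (SD, n = 3 each), a log2 fold change of 3.95 ± 0.45 (SE), or 15.5-fold, with an interval at the 95% level of 7.74-fold to 31.0-fold (limma adjusted p = 0.00107). It ranked 40 from the top among the 13265 genes tested. Pairing libraries by number, the excess of IP over input was 15.2-fold (number 1), 33.8-fold (number 2) and 7.23-fold (number 3). As a share of reads, which does not use the scaling of the authors, slbp2 took 0.879% of IP reads and 0.0585% of input reads. This call held under all 17 alternatives, including each library left out, with estimates of 3.48 without IP replicate 2 and 4.48 without IP replicate 3.

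The transcript of slbp, which encodes the form used in dividing cells generally, had 749.2, 800.8 and 482.6 normalized counts in IP, against 1091.7, 854.2 and 619.1 in input. The groups overlapped, since the lowest input library lay below the 2 highest IP libraries, while within each replicate number IP was below input, at 0.686, 0.937 and 0.780 of it for numbers 1, 2 and 3. Its log2 fold change was -0.33 ± 0.31 (SE, limma adjusted p = 0.608, and 0.500 with the replicate block). The unblocked interval of slbp ran from 0.492-fold to 1.29-fold, so a fall down to about that lower bound was not excluded. The ratio of slbp2 to slbp within a library, which no scaling between libraries can move, was 7.31, 8.06 and 6.78 on the log2 scale in IP replicates 1, 2 and 3, against 2.84, 2.89 and 3.57 in input. Each IP library stood above each input library, with a difference of 4.28 on the log2 scale, or 19.5-fold (two-sided exact permutation p = 0.1, which is the floor for groups of 3). Of 16 such measures within libraries, none could pass a threshold of 0.05, and the smallest p adjusted over the 16 was 0.145.

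**Figure D2:**
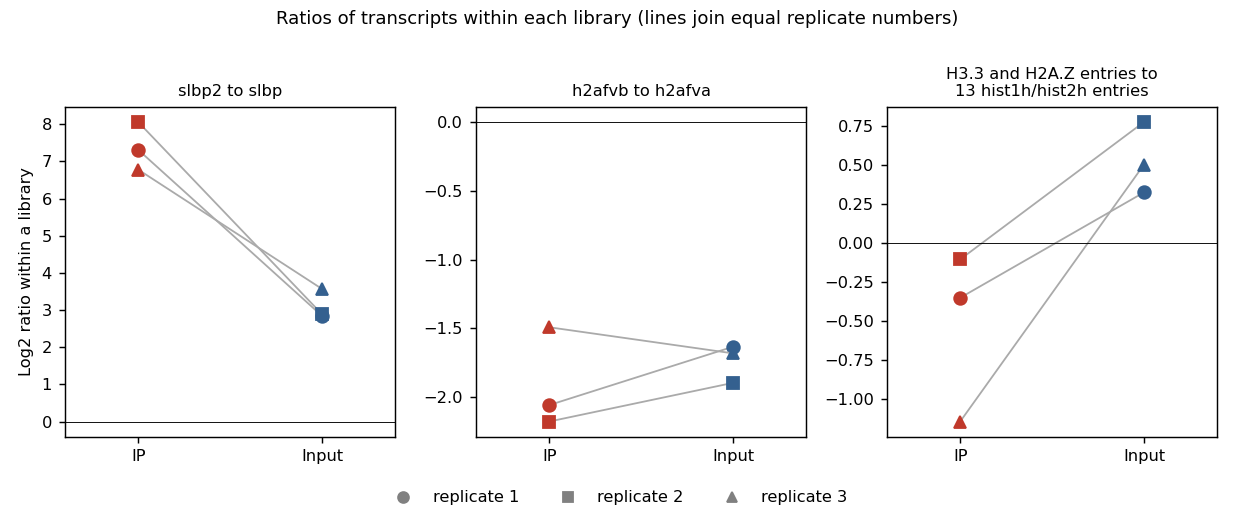
Log2 ratio of normalized counts within each library (y axis, a scale of its own in each panel) for slbp2 to slbp, h2afvb to h2afva, and the 7 H3.3 and H2A.Z entries summed to the 13 entries with hist1h or hist2h names, in Tdrd6a IP (left) and input (right), with lines that join equal replicate numbers. The slbp2 to slbp ratio lies between 6.78 and 8.06 in IP, above all input libraries, whereas the h2afvb to h2afva ratio overlaps between the groups.

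The name h3f3b.1 was shared by 5 entries in the table. The zebrafish genome holds several genes for H3.3, and the table of gene identifiers gives these entries the symbols h3f3a (ENSDARG00000020504), H3-3B (ENSDARG00000033009), h3f3d (ENSDARG00000045248), h3f3b.1 (ENSDARG00000068434) and a clone name (ENSDARG00000068436). Genes for H3.3 encode near-identical proteins, and how reads that fit several copies were counted is not given in the sources used here, so the split between entries is uncertain and their sum is the safer value. Summed over the 5 entries, H3.3 messages took 123, 218 and 153 RPM (reads scaled to a common library total) in IP, against 433, 407 and 354 in input. All IP libraries were below all input libraries, with means of 165 ± 48.4 in IP and 398 ± 40.0 in input (SD, n = 3 each, two-sided exact permutation p = 0.1, the smallest possible), a ratio of 0.414. On normalized counts, 12.9% of single genes tested were separated in this direction. RPM does not use the size factors of the authors, and scaling by library size only moved the median log2 fold change of all genes by -0.18. Ratios of RPM, here and below, are therefore not on the scale of the fold changes from normalized counts.

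The entries of H3.3 were not lower to the same degree. The clone-named entry ENSDARG00000068436 had 303.7, 169.2 and 283.5 normalized counts in IP, against 816.0, 911.5 and 976.4 in input, and it fell by 1.86 ± 0.31 on the log2 scale (SE, limma adjusted p = 0.00684), to 0.275-fold. In it IP replicate 2 was the lowest library, unlike in the other 4 entries, where it was the highest of the IP libraries. The h3f3d entry had 558.1, 1158.0 and 364.4 normalized counts in IP, against 2174.4, 2200.1 and 1949.3 in input, and it fell by 1.76 ± 0.38 (SE, limma adjusted p = 0.0217), to 0.295-fold. In these 2 entries and in the h3f3b.1 entry proper no IP library reached the lowest input library, a separation seen in 12.9% of all genes tested. The call of the h3f3d entry was lost when IP replicate 1 or any 1 input library was left out (adjusted p of 0.0905 to 0.110). That of the clone-named entry was lost only without input replicate 3 (adjusted p = 0.0527).

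The remaining 3 entries of H3.3 were not called. The entry ENSDARG00000068434 had 210.6, 221.8 and 152.0 normalized counts in IP, against 393.4, 354.3 and 355.2 in input, with a log2 fold change of -0.92 ± 0.31 (SE, limma adjusted p = 0.108). The h3f3a entry had 614.4, 1049.0 and 670.8 in IP, against 1444.7, 971.1 and 1091.6 in input, so that IP replicate 2 alone lay inside the range of input, and its log2 fold change was -0.61 ± 0.30 (SE, limma adjusted p = 0.275). The H3-3B entry had 237.7, 703.1 and 316.1 in IP, against 253.3, 360.2 and 408.4 in input. The groups overlapped, with IP replicate 2 the highest of all 6 libraries and IP replicate 1 the lowest, and the log2 fold change of 0.17 ± 0.41 (SE, limma adjusted p = 0.868) became -0.28 without IP replicate 2.

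The make-up of the H3.3 messages was also compared, as the share of each entry within a library. The shares in a library are parts of the same sum, so a fall in some entries raises the shares of others. They describe the values above again and are no separate support, and the split between entries remains uncertain. The H3-3B entry gave 12.4, 21.3 and 17.7% of the 5 entries' normalized counts in IP, against 4.98, 7.51 and 8.54% in input. The h3f3d entry gave 29.0, 35.1 and 20.4% in IP, against 42.8, 45.9 and 40.8% in input. For both, and for the h3f3a entry (33.7 ± 3.29% in IP and 23.8 ± 4.18% in input, SD, n = 3 each), the 2 groups did not overlap, with a two-sided exact permutation p of 0.1, the smallest possible, before any adjustment over the 5 entries. The groups overlapped for ENSDARG00000068434, whose share was 8.72 ± 2.12% in IP and 7.52 ± 0.194% in input (SD, n = 3 each, two-sided exact permutation p = 0.4). The share of the clone-named entry was 12.3 ± 6.18% in IP and 18.5 ± 2.23% in input (SD, n = 3 each). Its IP libraries were below all input libraries, but IP replicates 1 and 3, at 15.8 and 15.9%, lay just under the lowest input library at 16.1%, and only IP replicate 2 stood far off at 5.13%.

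**Figure D3:**
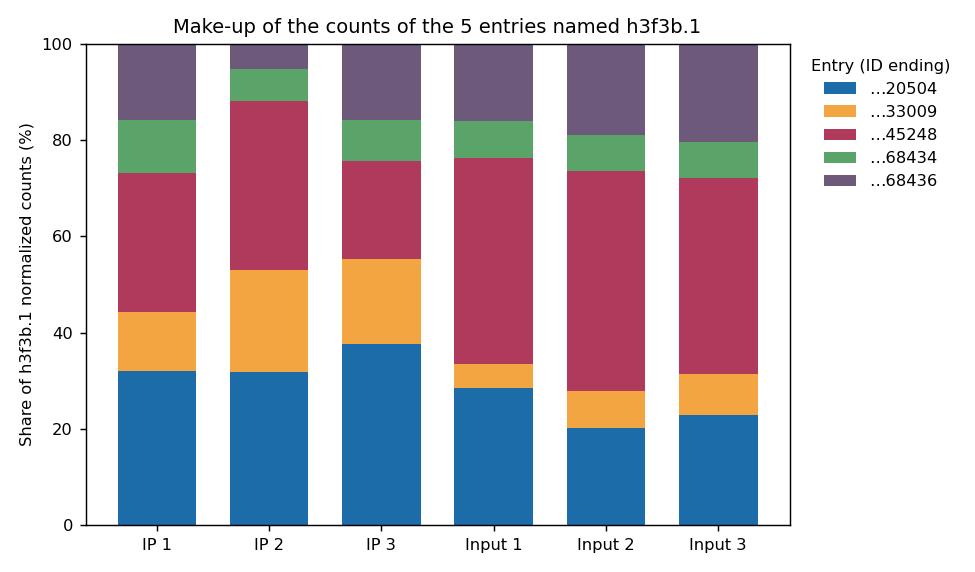
Share of each of the 5 entries named h3f3b.1 (stacked bars, percent of their summed normalized counts, entries marked by the last digits of the identifier) in each Tdrd6a IP library (left 3 bars) and input library (right 3 bars). The H3-3B entry (orange) takes 12.4 to 21.3% in IP and 4.98 to 8.54% in input, and the h3f3d entry (red) takes 20.4 to 35.1% in IP and 40.8 to 45.9% in input.

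Both genes of H2A.Z, the variant placed around transcription start sites by the SRCAP and p400 complexes, lay lower in IP. The transcript of h2afvb (ENSDARG00000042502) had 289.8, 481.3 and 330.6 normalized counts in IP, against 1041.2, 793.2 and 816.1 in input. It fell by 1.28 ± 0.29 on the log2 scale (SE, limma adjusted p = 0.0279), to 0.412-fold. That of h2afva (ENSDARG00000068820) had 1219.7, 2192.0 and 937.4 normalized counts in IP, against 3240.3, 2964.6 and 2627.7 in input. No IP library of either gene reached the lowest input library, as for 12.9% of all genes tested. The log2 fold change of h2afva was -1.11 ± 0.32 (SE, limma adjusted p = 0.0694). It was not called by limma without a block and was called with replicate number as a block (adjusted p = 0.0380), and leaving out IP replicate 2, its highest IP library, gave -1.45 (adjusted p = 0.00181). The call of h2afvb was lost when any 1 library other than IP replicate 2 was left out (adjusted p of 0.0623 to 0.135).

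A difference between the H2A.Z copies was not seen. The log2 ratio of h2afvb to h2afva was -2.06, -2.18 and -1.49 in IP replicates 1, 2 and 3, against -1.63, -1.90 and -1.68 in input, and the groups overlapped (difference -0.17, two-sided exact permutation p = 0.5). Together the H2A.Z messages took 127 ± 43.0 RPM in IP and 313 ± 54.9 in input (SD, n = 3 each, two-sided exact permutation p = 0.1). The ratio was 0.407, beside the 0.414 of H3.3 on the same RPM scale, which differs from that of the fold changes of the 2 genes.

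The transcript of h2afx (ENSDARG00000029406) had 279.4, 315.8 and 293.2 normalized counts in IP, against 436.0, 184.5 and 243.4 in input. All IP libraries lay within the range of input, which spread 2.36-fold, and the log2 fold change was 0.13 ± 0.36 (SE, limma adjusted p = 0.883) with an interval from 0.630-fold to 1.90-fold. The table names 2 further genes of the H2A.X group, h2ax1 and h2ax2, whose log2 fold changes were 0.22 ± 0.38 and 0.18 ± 0.28 (SE, limma adjusted p of 0.793 and 0.785). Summed, the 3 H2A.X messages took 109 ± 21.5 RPM in IP and 110 ± 29.1 in input (SD, n = 3 each, two-sided exact permutation p = 1).

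**Figure D4:**
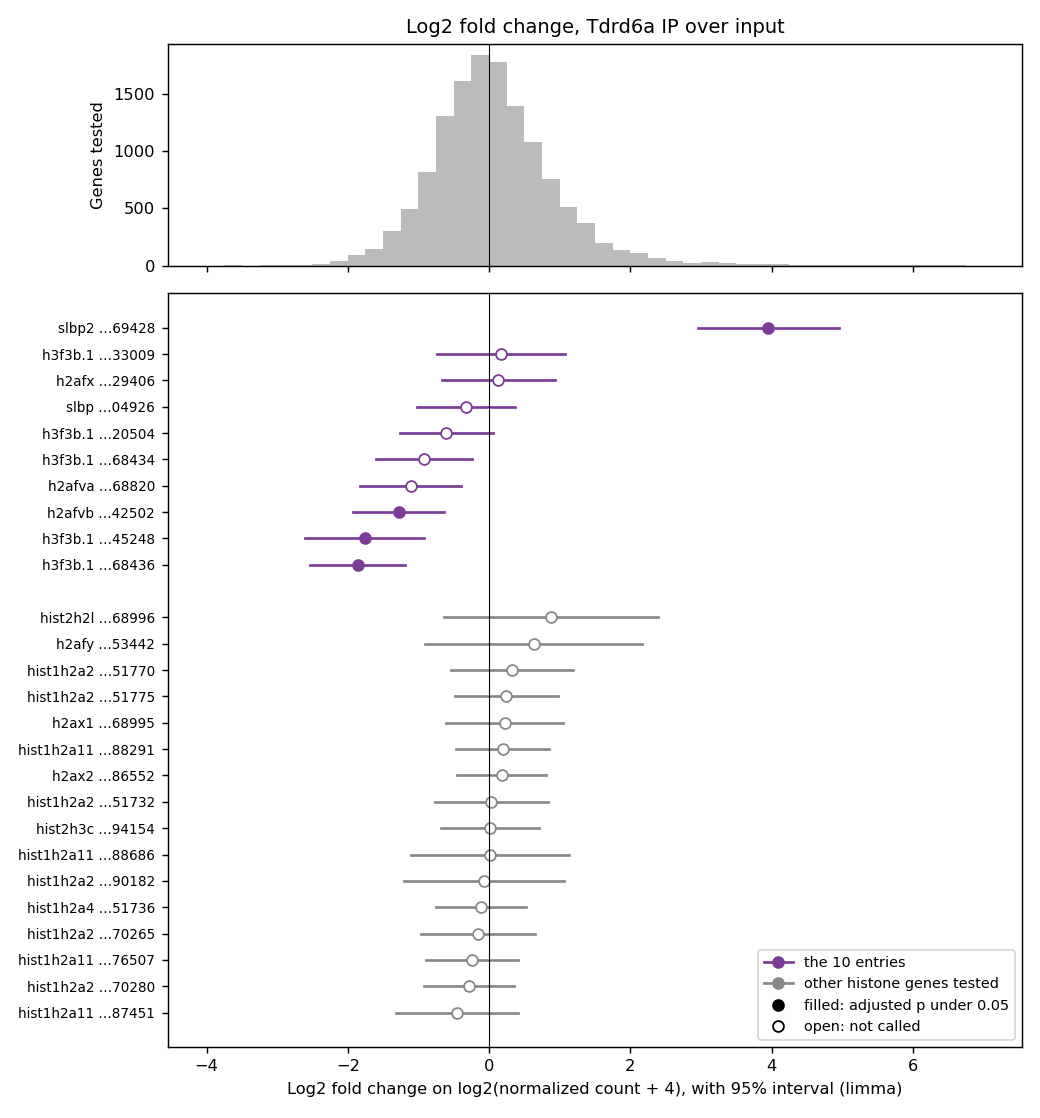
Log2 fold change of Tdrd6a IP over input on log2(normalized count + 4): number of genes tested in bins of 0.25 (upper panel) and estimates with 95% intervals from limma (lower panel) for the 10 entries (purple) and the 16 other histone genes tested (grey), filled where the adjusted p is under 0.05. The estimate of slbp2 stands at 3.95, the lowest members lie at -1.86 and -1.76, and all 16 grey intervals include 0.

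Other histone genes showed no called difference. The list of other histone genes, matched by name, held 21 entries, of which 16 were tested and 5 were too low. Limma called 0 of the 16, where it called 4.46% of all genes higher and 1.86% lower. By the other tools the count was 0 as well, where edgeR called 4.43% of all genes higher and 1.91% lower, and voom 4.67% and 2.47%. DESeq2 called 8.19% higher and 4.35% lower of the 12973 genes it gave an adjusted p. An unadjusted p under 0.05 was reached by 0 of the 16, against 21.2% of all genes. Their median log2 fold change was 0.03, beside -0.01 over all 13265 genes, and the estimates ran from -0.45 for an entry matched to hist1h2a11 (ENSDARG00000087451) to 0.88 for hist2h2l, both among the 3 of smallest p with an entry matched to hist1h2a2 (ENSDARG00000070280, -0.28). Of these entries 13 carry hist1h or hist2h names, which are used for replication-dependent histones. Apart from hist2h2l and hist2h3c they are hist1h2a entries, so their sum stands mainly for H2A. Most of them share their name with other entries, and since no sequences were compared, how reads were split between them is uncertain. Summed, these 13 took 281, 424 and 578 RPM in IP, against 637, 424 and 430 in input, and the groups overlapped (two-sided exact permutation p = 0.6). The linker and macroH2A entries h1f0, h1fx and h2afy2 had at most 9.7 normalized counts in any library and were not tested. Another macroH2A entry, h2afy, was tested, with a log2 fold change of 0.63 ± 0.70 (SE, limma adjusted p = 0.667).

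In the main fit 3 of the 7 H3.3 and H2A.Z entries were called lower (against 1.86% of all genes), and fewer in most fits without 1 library. Summed, the 7 entries were also set against those 13 entries, mainly of H2A. This comparison was chosen after both sums were seen, so it describes the same values again and is no separate support. The log2 ratio of the summed H3.3 and H2A.Z entries to the 13 entries was -0.35, -0.11 and -1.15 in IP replicates 1, 2 and 3, against 0.32, 0.77 and 0.50 in input. Every IP ratio was below every input ratio, by 1.07 on average on the log2 scale (two-sided exact permutation p = 0.1, the smallest possible).

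Among 23 entries matched to genes of histone pre-mRNA processing and partners of Slbp, 21 were tested, of which 1 was higher (4.76%, against 4.46% of all genes) and 1 lower (4.76%, against 1.86%). The median of their log2 fold changes was -0.12. The higher gene was cpsf3l, which encodes the Integrator endonuclease, a relative of the histone pre-mRNA cutting enzyme and not that enzyme itself. It had 863.2, 353.4 and 387.3 normalized counts in IP, against 70.6, 175.0 and 90.7 in input, a log2 fold change of 2.19 ± 0.45 (SE, limma adjusted p = 0.0186). The cutting enzyme's own gene, cpsf3, chosen after its values were seen, stood at -0.11 ± 0.28 (adjusted p = 0.867). The lower gene was snrpe, which encodes an Sm core protein of small nuclear ribonucleoproteins of splicing as well as of histone processing (-1.08 ± 0.27, adjusted p = 0.0367). With the replicate block 2 were called higher (9.52%, against 6.97% of all genes) and 2 lower (9.52%, against 3.52%), the added genes being cpsf2 (1.04 ± 0.29, adjusted p = 0.0322 with the block and 0.0589 without), a partner of cpsf3 in the cleavage complex, and the Sm core gene snrpd3 (-1.44 ± 0.45, adjusted p = 0.0203 with the block and 0.0863 without). The SEs of cpsf2 and snrpd3 are those of the fit without the block. Neither call of the unblocked fit survived the loss of IP replicate 1, input replicate 1 or input replicate 3, and snrpe was also lost without input replicate 2 or IP replicate 3.

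Among 41 entries matched to histone chaperones and deposition factors, 40 were tested, of which 2 were higher (5.0%, against 4.46% of all genes) and 0 lower (against 1.86%). The median of their log2 fold changes was -0.23, beside -0.01 over all genes. At an unadjusted p under 0.05 there were 13 of 40 (32.5%, against 21.2% of all genes), and most of these lay lower in IP. Of the 40 estimates 27 were below 0 and 13 above. The IP values lay wholly under the input values in 11 of 40 (against 12.9% of all genes). They lay wholly over them in 3 of 40 (against 14.6%). Both edgeR and voom called 2 higher and 0 lower. Of all genes edgeR called 4.43% higher and 1.91% lower, and voom 4.67% and 2.47%. DESeq2 called 4 higher (4 of 40, against 8.19% of the genes it gave an adjusted p) and 2 lower (2 of 40, against 4.35%). The higher genes were rbb4, the gene of a histone-binding protein shared by several chromatin complexes, and cabin1, the gene of a subunit of the HIRA complex that deposits H3.3. The transcript of rbb4 had 10239.8, 6064.5 and 4959.8 normalized counts in IP, against 2787.5, 2591.9 and 2003.9 in input (1.47 ± 0.32, limma adjusted p = 0.0216). That of cabin1 had 2695.8, 1846.1 and 2637.4 in IP, against 1117.5, 1082.1 and 907.5 in input (1.19 ± 0.26, limma adjusted p = 0.0241). Both calls ended when IP replicate 1 or 1 of the input libraries was dropped, and that of cabin1 also without IP replicate 3 or with scaling by library size only. The third of smallest p was chaf1a, a subunit gene of the replication-coupled assembly factor CAF-1 (-0.93 ± 0.28, adjusted p = 0.0759). The gene of HIRA itself, hira, chosen after its values were seen, stood at 0.04 ± 0.26 (adjusted p = 0.951). Other genes of that complex in the list, ubn1, ubn2b and ubn2, chosen likewise, lay on the lower side and were not called. Their log2 fold changes were -0.78, -0.63 and -0.46 (limma adjusted p of 0.231, 0.235 and 0.326). With the replicate block 3 were called higher (7.5%, against 6.97% of all genes) and 2 lower (5.0%, against 3.52%). The added higher gene was supt16h, a subunit gene of the FACT chaperone (1.48 ± 0.48, adjusted p = 0.0227 with the block and 0.1022 without). Added on the lower side was dek (-1.70 ± 0.52, adjusted p = 0.0109 with the block and 0.0825 without). So was daxx, the gene of an H3.3 chaperone (-1.16 ± 0.38, adjusted p = 0.0399 with the block and 0.1004 without). The SEs of supt16h, dek and daxx are those of the fit without the block.

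**Figure D5:**
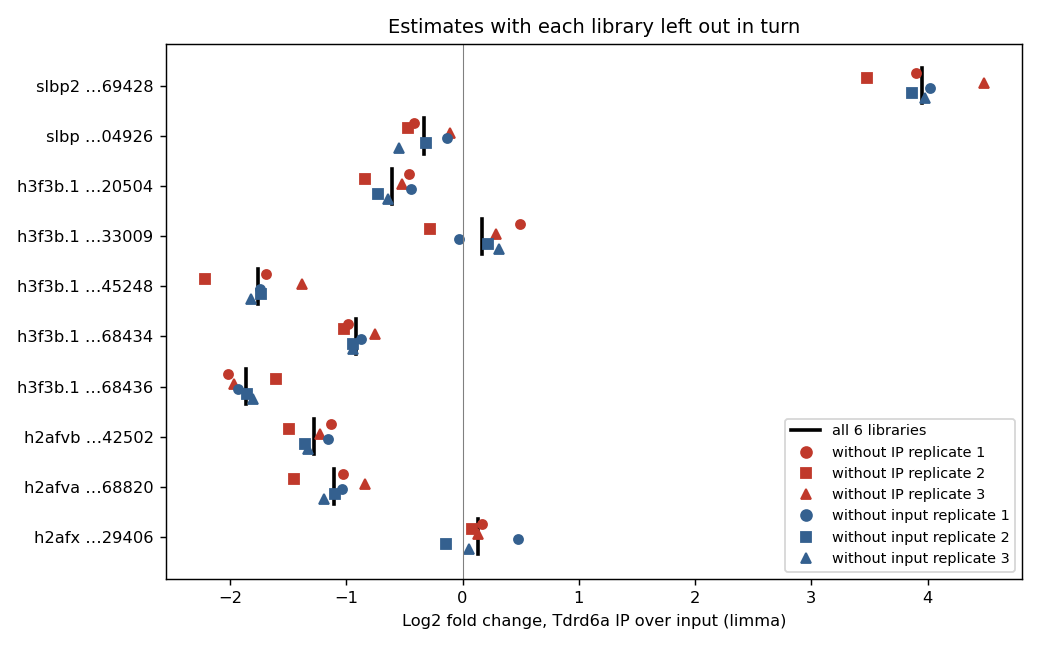
Limma log2 fold change of Tdrd6a IP over input (x axis) for each of the 10 entries with all 6 libraries (black line) and with 1 library left out (red symbols, IP library left out, blue symbols, input library left out). The estimates of slbp2 stay between 3.48 and 4.48, those of the h3f3d and clone-named entries between -2.21 and -1.38, and those of h2afx and of the H3-3B entry lie on both sides of 0.

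Genes of like pattern were sought among all tested genes with a name, by the root mean square distance between log2 profiles over the 6 libraries, each centred on its own mean. Nearest to slbp2 were vrtn (distance 0.22), tulp4 (0.23), myl12.1 (0.24), ctdsplb (0.26) and tpd52l2b (0.26), with log2 fold changes of 3.48 to 4.14. In each of these genes IP replicate 2 was the highest library and IP replicate 3 the lowest of the IP libraries, as in slbp2. The choice by profile over these same libraries favours such an order, so it is no separate result. Nearest to slbp were wdr24, psmc3 and mbip, and nearest to h2afx were ssr2, zp3.2 and mcfd2. The genes tmpoa, taf15 and rps9 lay nearest to h2afvb, and tfg, ccdc77 and pou5f1 nearest to h2afva. For the H3.3 entries they were srsf7a, akirin1 and cnn3b (h3f3d entry), gulp1a, znf1172 and fahd2a (clone-named entry), mrpl28, lmnb1 and atf7ip (ENSDARG00000068434), slmo2, ube2j2 and rnf168 (h3f3a entry) and cldnd1a, cdk16 and mbd2 (H3-3B entry). Distances for these 9 entries ran from 0.0452 to 0.183.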

How the data were processed

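RNA of zebrafish zygotes was measured in 3 Tdrd6a IP and 3 input libraries, grouped and numbered by the sample labels. Trizol extraction, the Ovation V2 kit and single-end reads of 50 bp were used, per the labels' protocols. TopHat, DESeq and Zv9 appear in the submitters' processing notes. How reads were counted, and whether by strand, is not given in the sources used here, so a gene and its antisense partner cannot be told apart.

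Values in the deposited table are a signal that the authors made by dividing gene read counts by a size factor per library (normalized counts, 1 decimal). Low values were whole multiples of 0.682 to 3.76 normalized counts, the value of 1 read. At least 99.97% of values above 0 lay within 0.06 of a whole multiple, and dividing recovered the reads. edgeR 4.0.16 on these reads called 588 genes higher and 253 lower. Intervals and floors of counting were not used, as reads carry no molecular identifiers and replicates were available.

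The test was limma 3.58.1 (abundance trend, robust) in R 4.3.3 on log2(normalized count + 4), group as the only term, two-sided, with Benjamini-Hochberg adjustment over the 13265 genes with a mean of at least 10, of which 591 were called higher and 247 lower. Fold changes are on that scale, which understates changes of low genes. Shares and ratios were compared by exact permutation of libraries. Members and gene lists were chosen with earlier results of these data known. Named genes were all members, in each list every called gene and the 3 of smallest p, and the nearest patterns (5 for slbp2, 3 for the others). Genes called with the block alone and those said to be chosen after their values were seen come on top of it. Names were matched by the symbol in the table, RefSeq synonyms (GRCz12tu) and the table of gene identifiers, which held 16425 of the 21051. The plan set 1 h3f3b.1 entry against another, and since there were 5, each was set against their sum. The script was tested on simulated data.

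Deviations from the group means were correlated between libraries of equal replicate number (correlations of 0.294, 0.305 and 0.301 across genes). Between unequal numbers the correlations ran from -0.21 to -0.07. The Slbp partner gene mif4gda, chosen after its values were seen, had 549.0, 0.0 and 0.0 normalized counts in IP replicates 1, 2 and 3. In input it had 383.3, 0.0 and 0.7. On the correlations, the numbers in the labels were taken as pairing the libraries. The planned main fit still kept group as the only term, so its calls, SEs and intervals do not use this pairing. Fits with the number as a block are given where they change a call. Libraries within a group differed by more than sampling noise, and all 6 were counted. Alternatives covered pseudocount, filter, scaling, test (edgeR, DESeq2 1.42.0, voom), replicate block and leaving out each library. No sequence or Zv9 annotation was used here.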

Additional observations from a re-analysis of the deposited data

How the results depend on the processing

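Of 170 estimates of the 10 entries under 17 alternatives each, 146 kept their direction and their side of the threshold. Scaling by library size only moved the median of all genes by -0.18 (log2). Without a filter beyond 1 read, where 19507 genes were tested, the h3f3d entry (-1.76, adjusted p = 0.0547) and h2afvb (-1.28, adjusted p = 0.0593) were not called. The estimate of h2afva was called with library size only (-1.30), DESeq2 (-1.05), voom (-1.20), the replicate block (-1.11) and edgeR with the block (-1.15). The direction turned for the H3-3B entry with library size only (-0.019), voom (-0.090), without IP replicate 2 (-0.28) and without input replicate 1 (-0.03), and for h2afx with library size only (-0.055) and without input replicate 2 (-0.14). The direction of the summed H2A.X reads turned without IP replicate 1 (10.4 RPM) or input replicate 1 (13.4 RPM; range with 1 library left out -15.7 to 13.4), as did that of the 13 hist1h and hist2h entries (4.22 and 0.763; range -144 to 4.22). The cause of these changes was not tested.

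With each library left out in turn, estimates ranged from -2.21 to -1.38 for the h3f3d entry, from -2.02 to -1.60 for the clone-named entry, from -1.49 to -1.13 for h2afvb, from -1.45 to -0.84 for h2afva, from -0.28 to 0.49 for the H3-3B entry and from -0.14 to 0.47 for h2afx. Among all genes, 170 to 1185 were then called higher and 10 to 547 lower, in the processing list 0 to 4 higher and 0 to 3 lower, and in the chaperone list 0 to 4 higher and 0 to 4 lower. Higher and lower genes over the whole table numbered 1063 and 564 with DESeq2 and 619 and 328 with voom. They numbered 925 and 467 with the replicate block, 799 and 449 with edgeR and the block, and 474 and 383 with library size only. At a mean of at least 50 they were 649 and 293 of 10340 genes, and without a filter 399 and 101 of 19507. In the processing list 2 were higher at a mean of at least 50 and 2 higher and 2 lower with DESeq2, voom, the replicate block and edgeR with the block, and 0 lower without a filter. In the chaperone list DESeq2 called 4 higher and 2 lower, library size only 1 higher and 1 lower, the replicate block 2 lower and edgeR with the block 3 lower. The replicate block changed no other call of the 10 entries than that of h2afva, and in pairs by number no ratio or share could reach a p below 0.25.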
